A study of Homo sapiens with 4 samples.

Results

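N6-methyladenosine (m6A) peaks lying in the 3' untranslated region (UTR) well past the stop codon are described here, in the established human embryonic kidney line HEK293T. A peak was a member when its midpoint lay more than 200 nt beyond the last base of the stop codon, on a coding RefSeq transcript with exactly 1 GENCODE partner long enough to hold every peak of that transcript. This gave 4169 of the 23623 peaks listed for the library named Ctrl IP and 3984 of the 23134 listed for the library named Cas IP. Together they were 8153 of 46757 peaks, on 3335 transcripts of 3334 genes.

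The study used MeRIP-seq, in which mRNA is broken into pieces, those bound by an anti-m6A antibody are captured, and the captured pieces are sequenced. The labels describe co-transfection of a construct named dCas13b-M14 with a gRNA, and harvest 24 h later, in the same words for all 4 libraries. How the Ctrl cells differed from the Cas cells is therefore not given, and the series design names the intended sites YTHDF2-1551, SPEN-3525 and GAPDH-782. Each group had 1 IP library and 1 input library, and the IP peak lists were the data analysed. The lists hold positions only, with no read count, score or p-value, so the depth is unknown, and for genes without a peak it can be said only that none was listed. With 1 library per group there was no replicate error and no test between groups. The intervals below are 95% intervals (Wilson for a share, Newcombe for a difference of shares) and cover the counting of peaks only.

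In mRNA, m6A is laid down by a complex around METTL3 and METTL14, mostly at adenosines within the sequence DRACH (D is A, G or U; R is A or G; H is A, C or U), and it is most frequent around stop codons and in 3' UTRs. Reader proteins of the YTH family bind the mark there and link it to mRNA decay and translation. The 3' UTR also holds the sites of microRNAs, AU-rich element binding proteins and the cleavage signal, so the place of a mark along it is of interest.

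The sites below show GGACT, the form of the m6A context most raised over peak-free sequence in these peaks, inside distal peaks found in both libraries. Each stretch is centred on the occurrence nearest the midpoint in 1 of the 8 widest Ctrl distal peaks that had at least 1 within 50 nt of the midpoint, also inside a Cas peak, on transcripts whose 5' end matched the RefSeq gene. This choice was made after the data were examined. Each is the transcript strand, 5' to 3', read from GENCODE release 29 transcripts, with T for U, and capitals mark each GGACT. The KITLG stretch holds a second GGACT upstream of the central one.

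SH3PXD2B: ttctctttGGACTgtgacagt

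GNG12: ccttgggaGGACTccaggcag

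KLHL18: gcacagcgGGACTcaaagagg

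ANKRD52: gagccataGGACTgctgaaaa

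TMEM44: gggtaccaGGACTtcctccaa

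KITLG: GGACTgcgGGACTtgggtctc

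NUMBL: tcactgccGGACTtaggctgg

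LIN7C: ttagtgtgGGACTgtgactga

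All 8 sites lie in 3' UTR exons, and their GRCh38 positions follow. The site of SH3PXD2B, an adaptor of podosomes, is chr5:172334558-172334578 on the minus strand, and its A lies 3801 nt past the stop codon. The site of GNG12, a G protein gamma subunit, is chr1:67704615-67704635 on the minus strand, 826 nt past the stop codon. KLHL18, a substrate adaptor of a CUL3 ubiquitin ligase, has its site at chr3:47345529-47345549 on the plus strand, 1598 nt past the stop codon. Of these 3 sites, that of SH3PXD2B is the farthest from the stop codon.

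ANKRD52, a regulatory subunit of protein phosphatase 6, has its site at chr12:56240096-56240116 on the minus strand, 3036 nt past the stop codon. In TMEM44 the site is chr3:194587906-194587926, minus strand, 613 nt past the stop codon. That of KITLG, the ligand of the receptor KIT, is chr12:88496949-88496969, minus strand, 260 nt past the stop codon. NUMBL, a NUMB family adaptor, and LIN7C, a PDZ protein of cell polarity, complete the set. Their sites are chr19:40667223-40667243 and chr11:27497412-27497432, both on the minus strand, 235 and 1227 nt past the stop codon. In GNG12 the A of the motif lay 1.5 nt before the midpoint of the Ctrl peak, which spanned transcript positions 1000 to 1493, and the Cas peak spanned 1018 to 1487.

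Distal peaks thinned out along the 3' UTR. Their midpoints lay a median of 888 nt past the stop codon in Ctrl (quartiles 420 and 1930.5 nt) and 911 nt in Cas (446 and 1893 nt). On the scale of the whole 3' UTR this was 42.2% of the way in Ctrl and 42.8% in Cas. Peak density over the 3' UTRs of eligible transcripts was 0.587 peaks per kb from 200 to 500 nt in Ctrl, 0.322 from 500 to 1000 nt, 0.236 from 1000 to 2000 nt, 0.191 from 2000 to 4000 nt and 0.116 beyond 4000 nt. The first 200 nt, outside the rule, held 1.10 per kb. Cas gave 0.524, 0.328, 0.236, 0.175 and 0.113 over the same 5 stretches, and 1.02 in the first 200 nt. Both libraries therefore had their lowest density beyond 4000 nt. The rule left out 1023 coding transcripts whose only partner ended before 1 of their peaks. This could lower the density far from the stop codon, and its effect was not tested. Lengths are those of the annotated 3' UTRs. From 90 to 100% of the 3' UTR lay 5.47% of Ctrl and 5.40% of Cas members, the smallest share of any such stretch of 10% in both libraries. Within 100 nt of the transcript end, where the cleavage signal lies, there were 68 members in each library, 1.63% of those of Ctrl and 1.71% of those of Cas. Every peak was at least 100 bases wide and had to fit inside its transcript. By construction, midpoints therefore had little room near the end, which lowers both of these shares. Nearly all members were in the last exon, 99.6% in Ctrl and 99.5% in Cas. Of coding peaks, 16.4% and 14.4% were.

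**Figure D1:**
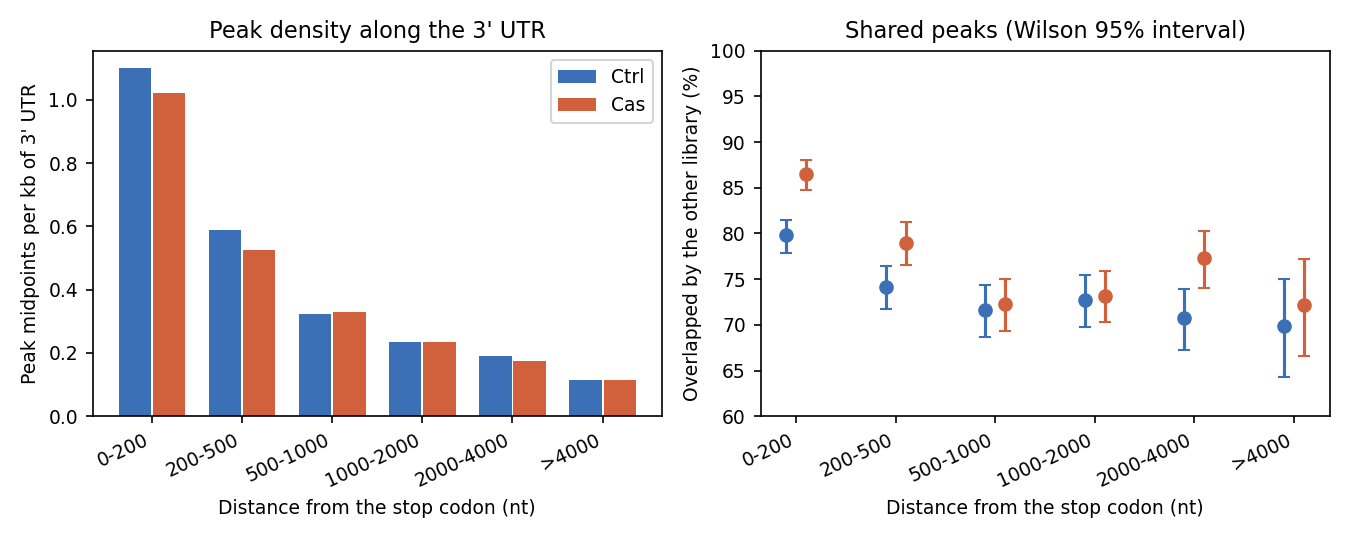
Left, peak midpoints per kb of 3' UTR in each stretch beyond the stop codon (x axis, nt), for Ctrl and Cas, with the first 200 nt (not members) for comparison. Density falls from 1.10 to 0.116 per kb in Ctrl and from 1.02 to 0.113 in Cas. Right, the share of those peaks that share a base with the other list, with Wilson 95% intervals; the axis starts at 60%.

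At the threshold itself, distances rest on GENCODE partners whose 5' end did not match the RefSeq gene for any of the genes named, so that their side of it is not settled to the base. By these models the Ctrl peak of ARPP19 (568 to 779) and that of CAD (6991 to 7090), the enzyme that starts pyrimidine synthesis, were just inside, both with midpoints 200.5 nt past the stop codon. The Ctrl peaks of POM121C and RPRM, at 200 nt, were just outside. In Cas the peaks of DYRK1B and HMGA2 at 200.5 nt were inside, and those of LOX and MORN4 at 200 nt outside. The LOX peak counted as distal in Ctrl, with its midpoint at 217.5 nt, although the Cas peak overlapped it. Such changes of class were few. The overlapping partner was itself distal for 96.5% of the overlapped Ctrl members and 97.8% of the overlapped Cas members, and 107 Ctrl and 66 Cas members had a partner only in the window of 200 nt to either side of the stop codon.

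Transcripts with longer 3' UTRs had a distal peak more often. By construction a longer 3' UTR has more room for a midpoint more than 200 nt past the stop codon. What part of the rise this makes was not tested. The 7981 eligible transcripts with more than 200 nt of 3' UTR were split into 4 classes of equal number by its length. All of them had at least 1 listed peak in some region. In the shortest class, 201 to 701 nt, 12.9% had a distal peak in Ctrl and 12.5% in Cas. From 702 to 1467 nt the shares were 29.8% and 28.3%, from 1468 to 2830 nt 43.4% and 40.4%, and from 2831 nt up 59.9% and 55.6%. The order of the classes was the same in both libraries. Peaks at the stop codon were listed on fewer of the transcripts with a distal peak than of the others. Of transcripts with a distal peak, 41.2% in Ctrl (39.4 to 43.0) and 42.9% in Cas (41.1 to 44.8) also had a peak in the stop codon window. Of transcripts with peaks but no distal one, 56.9% and 55.1% had one, and since every transcript counted there had at least 1 peak, its peaks had to lie in another region. For 25.1% of the transcripts with distal peaks in Ctrl and 24.4% in Cas, distal peaks were the only ones listed.

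Most distal peaks of each library shared at least 1 base with a peak of the other, and the share was below that of stop codon window peaks. In Ctrl 3017 of 4169 members were overlapped, 72.4% (71.0 to 73.7), and 1152 were not; of all peaks of the Ctrl list 24.2% had no partner, and of those on eligible transcripts 23.6%. In Cas 2999 of 3984 were overlapped, 75.3% (73.9 to 76.6), and 985 were not, against 22.0% of the whole Cas list and 21.8% of its peaks on eligible transcripts. Stop codon window peaks were overlapped in 81.1% of cases in Ctrl and 86.0% in Cas. The distal share was lower by 8.75 points in Ctrl (interval of the difference -10.5 to -6.94) and by 10.7 points in Cas (-12.4 to -9.00). Against coding peaks the difference was -4.51 points in Ctrl (-6.13 to -2.91), and in Cas it was -0.772 (-2.38 to 0.805), an interval that holds 0. Against 5' UTR peaks the distal share was higher in Ctrl by 5.57 points (2.05 to 9.23), while in Cas the difference was -3.23 (-6.50 to 0.327).

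Wider peaks were overlapped more often in every region, and distal peaks were narrower than stop codon window and coding peaks. Their median width was 180 bases in Ctrl (quartiles 140 and 244) and 170 in Cas (130 and 230), against 200 and 194 at the stop codon and 205 and 199 in coding sequence; 5' UTR peaks were narrower still, at 164 and 160. Members 100 to under 150 bases wide were overlapped in 52.4% of cases in Ctrl and 61.6% in Cas, and those of 300 bases or more in 89.8% and 95.1%. Within width classes the gap to the stop codon window stayed in Ctrl from 150 bases up (-7.95, -5.55 and -4.05 points in rising order of width, no interval holding 0), while in the narrowest class it was -3.44 (-7.61 to 0.750). In Cas it was -11.1, -11.5 and -4.44 points in the 3 narrower classes and 0.0689 (-2.62 to 2.49) in the widest. The gap to coding peaks did not keep its sign. In the narrowest class distal peaks were overlapped more often than coding peaks, 52.4% against 47.2% in Ctrl and 61.6% against 56.8% in Cas. Where distal peaks overlapped, midpoints were a median of 15.5 nt apart (quartiles 5.50 and 40.0 nt), with 80.4% of pairs within 50 nt. Only overlapping pairs were measured, so by construction the distances are short. The medians were 13.5 nt for stop codon window peaks and 18.5 nt for coding peaks.

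**Figure D2:**
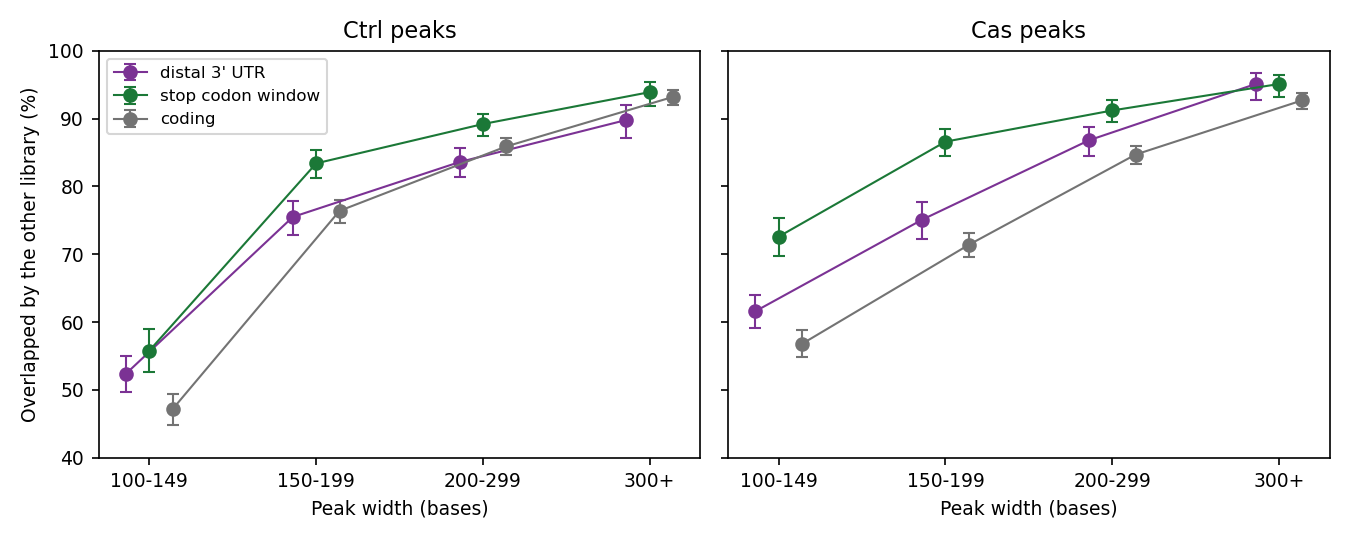
Share of peaks overlapped by the other library (y axis, %, starting at 40) by peak width (x axis, bases) for distal 3' UTR, stop codon window and coding peaks, Ctrl at left and Cas at right, with Wilson 95% intervals. Distal peaks climb from 52.4% to 89.8% in Ctrl and from 61.6% to 95.1% in Cas.

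A group of members had both ends on a grid of 10 bases. These were 1188 in Ctrl and 1222 in Cas, and 50.8% and 60.5% of them were overlapped, against 81.0% and 81.8% of the other members. Grid peaks were also narrower, with medians of 160 bases in Ctrl and 150 in Cas against 187 and 176. No label explains the grid, and its part in the overlap was not tested.

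Counted by gene, 2303 of the 3334 genes had a distal peak in both libraries, 607 only in Ctrl and 424 only in Cas. These Ctrl-only and Cas-only shares, 18.2% and 12.7%, stood beside 18.5% and 13.5% for stop codon window peaks and 11.9% and 11.1% for coding peaks. Over all eligible genes and any region, 9.24% had peaks in Ctrl only and 4.77% in Cas only. Of the 607 genes, 402 had a Cas peak that was no member, and of the 424, 363 had a Ctrl peak that was no member. Some of these peaks overlapped the distal one. Counting a gene so overlapped as present in both left 536 in Ctrl only and 384 in Cas only. Of these genes, 539 of the 607 and 393 of the 424 had 1 distal peak; over all genes with distal peaks, 2065 of 2910 in Ctrl and 1886 of 2727 in Cas had 1. Of the 2303 genes with distal peaks in both, 1658 had the same number, 350 more in Cas (15.2%; 24.1% over any region) and 295 more in Ctrl (12.8%; 19.6%). In 85 of them no distal peaks of the libraries overlapped.

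The genes with most distal peaks mostly had long 3' UTRs, with SBF1, at 2142 nt, the shortest of the 10 named for their number. ONECUT2, a homeodomain transcription factor, had 7 in Ctrl and 9 in Cas over a 3' UTR of 14574 nt. All 7 Ctrl peaks were overlapped, from 1731.0 nt to 14208.5 nt past the stop codon, and the Cas peaks without a partner were those at 643.5 and 2363.0 nt. POLR1A, the largest subunit of RNA polymerase I, had 7 in each, 6 of them overlapped in Ctrl and 7 in Cas. ACVR2B, an activin receptor, had 7 and 6, with 5 overlapped in each. CELF1, an RNA-binding protein of splicing and mRNA decay, had 6 and 7. In all 4 genes most peaks were found at matching places in both libraries.

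MTR, the methionine synthase, had 6 distal peaks in each library and every one was overlapped. Their Ctrl midpoints lay 227.0, 1659.0, 2112.0, 2781.0, 3481.5 and 6044.5 nt past the stop codon. The Cas midpoints lay at 223.5, 1659.5, 2103.5, 2767.0, 3538.5 and 6058.5 nt. The largest shift between a Ctrl and a Cas peak was thus at the fifth of them. CLASP1, a microtubule plus-end protein, SLC9A7, a sodium/proton exchanger, HIPK2, a nuclear kinase, HIF1AN, the asparagine hydroxylase of HIF, and SBF1, a myotubularin family member, had 5 or 6 in each library. Over all eligible genes, 293 in Ctrl and 267 in Cas had 3 or more distal peaks.

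Some genes differed in number between the libraries. SLC7A11, the cystine/glutamate exchanger, had 3 distal peaks in Ctrl, all overlapped, and 6 in Cas. The extra Cas peaks of SLC7A11, at 393.0, 878.0 and 1384.5 nt, were 137, 107 and 100 bases wide. MAVS, the mitochondrial adaptor of antiviral signalling, had 2 and 5, with the extra ones at 454.5, 2083.5 and 8448.5 nt. SAMD4A, an RNA-binding repressor, had 1 and 4. GPR107 and TP53I11 had 2 in Ctrl and 5 in Cas. In these 5 genes every Ctrl distal peak had a Cas partner.

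The reverse was seen in ANKRD33B, with 5 distal peaks in Ctrl and 1 in Cas. ADAM22, a neuronal receptor, had 4 and 1, and CFLAR, an inhibitor of caspase-8 signalling, 6 and 3. RAP1GAP2, a GTPase activator, and SLC46A1, a folate transporter, both had 5 and 2. Of the 5 Ctrl peaks of SLC46A1, however, 4 were overlapped: 1 Cas peak, 2974 to 3264, covered parts of 2 of them, and another partner had its midpoint 164.5 nt past the stop codon and so was no member. The 3 Cas peaks of CFLAR lay at 3779.5, 4861.0 and 5235.5 nt and all overlapped Ctrl peaks, while its Ctrl peaks at 3335.0, 5582.5 and 7040.5 nt had no partner.

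Of the genes with distal peaks in Ctrl only, ACADSB, an acyl-CoA dehydrogenase, had 4, at 1588.5, 1847.5, 2665.5 and 3400.0 nt, and no Cas peak in any region. FMNL3, a formin, also had 4. ZNF480, a zinc finger protein, SMURF1, a ubiquitin ligase, and SLC9A8, a sodium/proton exchanger, had 3 each. Neither ZNF480 nor SMURF1 had a Cas peak of any kind, and FMNL3 and SLC9A8 had 1. The 3 peaks of ZNF480 all had both ends on the grid.

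In Cas only, MIEF1, an adaptor of mitochondrial fission, had 3, at 2034.0, 2434.5 and 3434.5 nt, and 1 Ctrl peak elsewhere. DIP2A also had 3, of which the widest, 919 bases, was overlapped by a Ctrl peak of another region. KMT5C, a histone H4 lysine methyltransferase, KIF3C, a kinesin, and FSTL3, a secreted activin-binding protein, had 2 each, and the wider peak of KMT5C too was overlapped by a Ctrl peak of another region. FSTL3 had no Ctrl peak in any region. None of these counts had a replicate.

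Peaks found in both libraries reached far from the stop codon. Besides ONECUT2, the farthest overlapped ones were in AGO2, the Argonaute protein that carries microRNAs (11393.5 nt in Ctrl, 11382.5 nt in Cas), HIPK2 (10664.0 and 10663.5 nt), GPATCH2L (10555.0 and 10560.5 nt) and NCBP3, a cap-binding protein (10448.0 and 10544.5 nt). The midpoints differed by less than 15 nt in 3 of these 4 genes. The widest overlapped peaks, in contrast, were near the stop codon. Those of SHPK (1197 bases), TRRAP (1050) and DERL1 (1040) in Cas and of DIXDC1 (1020) and RHBDD1 (1011) in Ctrl all began before the stop codon and had midpoints 226.5 to 346.5 nt past it.

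Of the intended targets, YTHDF2, an m6A reader, and SPEN, a transcriptional repressor, each had 1 distal peak in both libraries. The peak of YTHDF2 spanned transcript positions 2271 to 2404 in Ctrl and 2301 to 2407 in Cas, with midpoints 235.5 and 252.0 nt past the stop codon. That of SPEN spanned 11513 to 11810 and 11514 to 11810, 462.5 and 463.0 nt past it. Both pairs overlapped. For both genes, the number in the name of the intended site is lower than the first position of the distal peak in either library. What these numbers count from is not given. If they are transcript positions, the distal peaks do not cover the intended sites and say nothing about m6A there. The 5' ends of the partners of YTHDF2 and SPEN did not match the RefSeq gene, so the distances from the stop codon rest on those models; the overlap, read along the RefSeq transcript, does not. No height is given: the lists hold nothing by which to compare the peaks' strength. GAPDH, the glycolytic enzyme, had no peak in either list. Among other m6A genes, METTL16, a methyltransferase, had 1 peak in each library, at 3603.5 and 3600.0 nt. IGF2BP3, an mRNA-binding protein and reader, also had 1 in each. YTHDC2, a reader with helicase activity, had 2 in Cas only, and CBLL1, a component of the writer complex, 1 in Cas only. METTL14, WTAP, VIRMA, FTO and YTHDF1 were eligible and had none. YTHDF3 had none either. Its 3' UTR of 249 nt leaves no room for a distal midpoint under peaks of at least 100 bases.

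The m6A sequence context stood out in distal peaks. In windows reaching 50 nt to either side of the midpoint, on the transcripts whose 5' end matched, GGACT was present in 143 of 751 Ctrl peaks, 19.0% (16.4 to 22.0), and in 122 of 693 Cas peaks, 17.6% (14.9 to 20.6). Windows of the same length in the distal 3' UTRs of the same transcripts that touched no peak of either library held it in 898 of 13679 cases, 6.56%. The difference was 12.5 points in Ctrl (9.79 to 15.5) and 11.0 in Cas (8.35 to 14.1). Cas minus Ctrl was -1.44 points (-5.41 to 2.57). Stop codon window peaks were close by, at 17.9% and 17.7%, with differences from distal peaks of 1.15 points (-2.64 to 4.97) and -0.129 (-3.97 to 3.77). Coding peaks held GGACT in 14.8% and 13.5% of cases, below distal peaks by 4.21 points (1.05 to 7.57) and 4.09 (0.953 to 7.45). DRACH, of which GGACT is a form, is common in any sequence, and was present in 91.5% and 90.9% of distal peaks and 82.7% of peak-free windows. Motifs were searched on the transcript strand only.

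GC content was higher in the peaks, with a median of 48.5% in both libraries against 40.6% in the peak-free windows. Within GC classes GGACT remained more frequent in peaks. Under 40% GC it was in 15.1% of Ctrl and 14.2% of Cas peaks against 4.18% of peak-free windows, and from 50 to under 60% in 20.4% and 21.5% against 10.3%. Around the midpoint GGACT reached 2.13 per kb in Ctrl and 2.03 in Cas within 50 nt of it, against 0.893 and 0.750 in bins centred 200 to 300 nt away. Peaks overlapped by the other library had GGACT in 19.5% of cases in Ctrl and 18.6% in Cas, and those not overlapped in 17.9% and 14.8%, with intervals of both differences that hold 0.

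**Figure D3:**
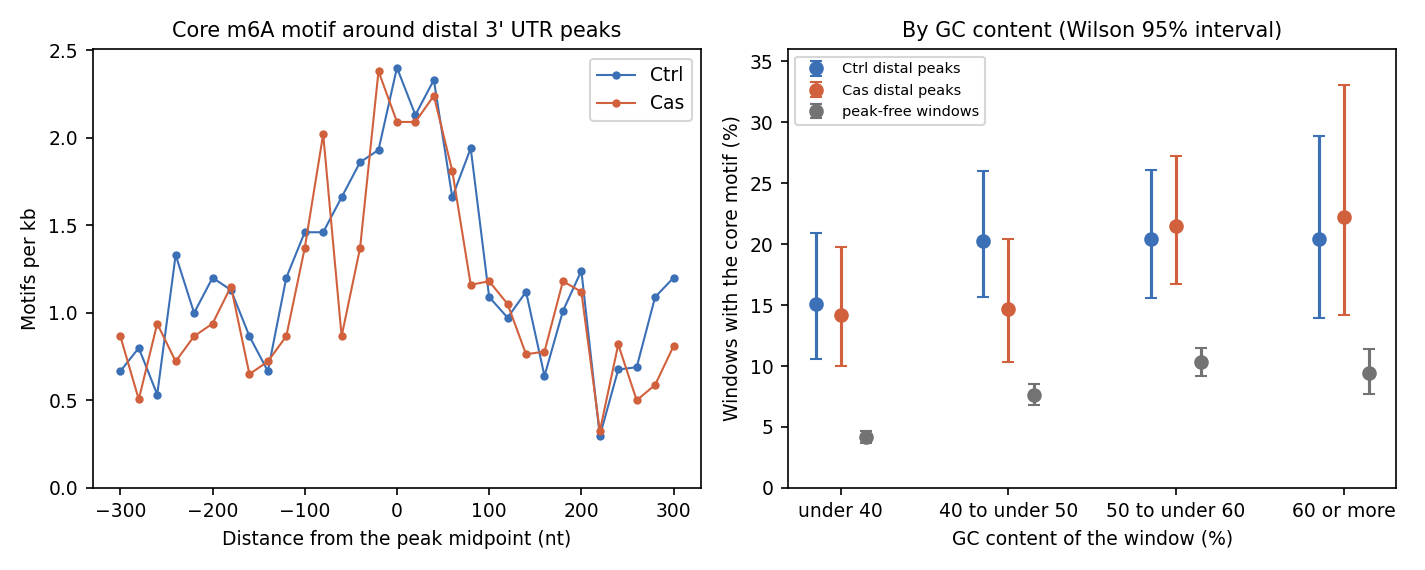
Left, occurrences per kb of the motif GGACT in bins along the transcript (x axis, nt from the peak midpoint) for 751 Ctrl and 693 Cas distal peaks. Right, share of windows with the motif by GC content, with Wilson 95% intervals; peaks lie above peak-free windows in each class, such as 15.1% and 14.2% against 4.18% under 40% GC.

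The 18 forms of DRACH were not alike. Relative to peak-free windows, GGACT was 2.90 times as frequent in Ctrl and 2.68 times in Cas, GGACA 2.65 and 2.49 times, GGACC 2.38 and 1.90 times and AGACT 2.02 and 1.89 times. At the other end, the lowest in Ctrl was TAACA, at 0.690 (0.950 in Cas), and the lowest in Cas was TAACT, at 0.672 (0.718 in Ctrl). The 3 forms of the highest ratio all began with GGAC in both libraries. All 60 orders of the letters of GGACT were searched as a comparison of equal base composition, and their median ratio was 1.13 in Ctrl and 1.21 in Cas. GGACT ranked 2 in Ctrl, after TGGAC at 2.91, and 1 in Cas, before TGGAC at 2.39; GACTG, which shares 4 letters in a row with it, was at 2.47 and 2.32. The forms, the orders and the GC classes were examined after the data had been seen.

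Taken over all GC classes, motifs of other 3' UTR functions were not raised in the windows. The AU-rich pentamer ATTTA was in 11.5% of Ctrl and 12.4% of Cas peaks against 18.4% of peak-free windows. Under 40% GC the shares were 26.9% and 29.9% against 30.7%, and from 40 to under 50% they were 10.4% and 9.42% against 10.9%. From 50 to under 60% GC they were slightly higher in peaks, 4.42% and 3.86% against 3.37%. At 60% GC or more they were 1.85% and 0% against 0.612%. Searched over whole peaks, most of which are longer than the windows, ATTTA was in 21.3% and 22.7%, so that the direction against the 18.4% of peak-free windows turned. The cleavage signal AATAAA was in 5.33% and 5.19% against 7.09%, with intervals of the difference that reach 0 (-3.22 to 0.127 and -3.38 to 0.0619). The Pumilio motif TGTANATA was in 0.799% and 1.59% against 1.97%, and the Cas interval holds 0. A sequence match is not a site in use.

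Most distal peaks had no GGACT within 50 nt of the midpoint, since 143 of 751 Ctrl and 122 of 693 Cas windows held it. In CCND2, the cyclin D2 gene, the DRACH nearest the midpoint of the widest overlapped Ctrl peak, 2847 nt past the stop codon, was GGACA, and in METTL16 it was TAACA, 3602 nt past it. Both are shown for contrast with the GGACT sites above, and CCND2 was chosen after its values were seen.

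CCND2: ttctggtgGGACAatgggtgg

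METTL16: gacaggaaTAACAaaactgca

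The CCND2 site is chr12:4302846-4302866 on the plus strand and the METTL16 site chr17:2416358-2416378 on the minus strand (GRCh38). The METTL16 peak held 6 DRACH matches and no GGACT, and the CCND2 peak held 3, 1 of them GGACT. In NCBP3 the widest overlapped Ctrl peak had GAACA nearest its midpoint and held no GGACT.

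The lists are described by their counts beside the share over all genes, with no test. Over all 7978 eligible genes with more than 200 nt of 3' UTR, 41.8% had a distal peak in either library. Every eligible gene had at least 1 listed peak in some region, so all shares here are among genes with peaks. The genes counted include some, such as YTHDF3, whose 3' UTR is too short to hold a distal midpoint. In the list of signalling receptors, which also held the ligand JAG2, 17 of 30 genes had a distal peak. Of these, 12 had one in both libraries, 3 in Ctrl only and 2 in Cas only. Beside ACVR2B these included IGF1R, the insulin-like growth factor receptor, with 4 in Ctrl and 3 in Cas, JAG2, a Notch ligand, with 2 in each, and EGFR and FZD7 with 1 in each. The median 3' UTR in this list was 3479.5 nt, against 1467 nt over all these genes. Repressors that bind 3' UTRs and deadenylation factors had one in 17 of 32 genes, with a median 3' UTR of 2616 nt. Of these LIN28B, which blocks let-7 maturation, had 4 in each library, AGO4 and the deadenylase CNOT6 had 3 in each, and AGO2 had 3 and 5. Both shares, 56.7% and 53.1%, were above that over all genes, and both lists had longer 3' UTRs, whose part was not tested.

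Cell cycle regulators had a distal peak in 10 of 23 genes, 43.5%, with a median 3' UTR of 1159 nt, shorter than over all genes. Among them were CCND2 at 4 and 3, CDC25A, a phosphatase that activates CDKs, at 2 in each, and AURKA, a mitotic kinase, at 1 in each. HOX, SOX and FOX factors had one in 22 of 59 genes, 14 of them in both libraries, 7 with Ctrl peaks alone and 1 with Cas peaks alone. FOXO1 and FOXO3, factors of insulin signalling, had 2 in each library, FOXK1 had 2 and 4. ZNF genes had one in 97 of 261, 61 of them in both libraries, 26 with Ctrl peaks alone and 10 with Cas peaks alone. The widest in this list were those of ZNF70, ZNF605 and ZNF714. In these 2 lists of transcription factors Ctrl-only genes outnumbered Cas-only genes, as they did over all genes (607 and 424).

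Immediate early genes had one in 6 of 16, with MCL1, an apoptosis inhibitor, at 2 in each and IER2 and KLF6 at 1 in each. Co-regulators of chromatin and transcription had one in 11 of 34, with CHD2, a chromatin remodeller, at 1 and 2, and KMT2A, a histone methyltransferase, at 1 and 0. Feedback inhibitors of signalling had one in 5 of 23, among them RGS16 and SOCS7 with 2 in each and TNFAIP3 with 1 and 0. Cleavage and polyadenylation factors had one in 2 of 14, CPSF7 and NUDT21. Respiratory chain genes had one in 6 of 23, such as SDHC with 2 in each, NDUFS7 with 1 in each, at places that did not overlap, and the assembly factor NDUFAF4 with 1 in Cas. m6A writers had one in 2 of 8 and erasers and readers in 3 of 10. Of 87 cytosolic ribosomal protein genes, 23 were eligible, and none of those had one.

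The cell type could be checked only through genes with a peak. Of 10 markers of kidney and the HEK293 lineage, 8 had a peak in Ctrl and 6 in Cas. Of 22 markers of other cell types, 3 had one in Ctrl (RBFOX3, SYT1 and COL1A1) and 2 in Cas (SYT1 and COL1A1), and no blood, liver or muscle marker had one.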

How the data were processed

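Peak lists of the 2 IP libraries were used; the input libraries were not used. Per the submitters' processing notes, the tools were FastQC, fastp, HISAT2, SAMtools, edgeR and HOMER and the build GRCh38; their roles and versions, the peak caller, its threshold and the transcripts' release: not given in the sources used here. The deposited lists give positions along RefSeq transcripts, counted from 1.

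RefSeq transcripts were paired with GENCODE release 29 through its cross-reference. Of 11254 transcripts with a peak in either list, 10193 had exactly 1 partner and 8690 were eligible. On 1678 the 5' ends of partner and RefSeq gene (GRCh38.p14 table) were at most 10 nt apart, and motifs and sequences use those. Other partners may start elsewhere, which blurs placement. Overlap needed 1 shared base and, like the rest, was computed in Python 3.11.15. On simulated lists, 69.6% of peaks were planted as overlapping and 69.6% found.

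Members and lists were chosen with earlier results of these data known. Genes are named for most distal peaks, largest difference in number, peaks in 1 library only, farthest and widest overlapped peaks, being a target or m6A gene, up to 3 per list by widest peak, and nearness to the threshold; other list members were named after their values were seen. A gene that the rule takes is not reported here.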

Additional observations from a re-analysis of the deposited data

How the results depend on the processing

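Of the planned comparisons, 51 stayed within their counting interval or within 1.5 times the count, while 36 moved. Overlapped shares of Ctrl and Cas members were 60.2% and 62.6% with a reciprocal overlap of 50%. Keeping the wider 50% of both lists gave shares of 58.8% and 63.6%, 1809 and 1661 members, median places of 37.1% and 38.3% of the 3' UTR, 949 genes in both, DRACH in 88.8% and 88.3% and GGACT in 22.2% of Ctrl peaks. Without grid peaks the shares were 67.2% and 71.3% and the median widths 187 and 176 bases. On transcripts with a matching 5' end alone the shares were 68.8% and 73.7%, with 751 and 693 members and 394 genes in both, 123 only in Ctrl and 88 only in Cas. The Cas share was 76.8% beyond 100 nt and 73.9% beyond 400 nt. Beyond 1000 nt there were 1937 and 1871 members, and 1066 genes in both, 251 only in Ctrl and 214 only in Cas. By construction the reciprocal rule is stricter, the cut at 100 nt adds peaks and the other settings hold fewer; beyond that, the cause was not tested. Searching whole peaks, which differ in length from the windows, gave DRACH in 97.6% and 97.3%, GGACT in 30.0% and 27.3%, and ATTTA in 21.3% and 22.7%; against the 18.4% of peak-free windows ATTTA thus turned from lower to higher. Counting a gene as present also where a peak of another region overlaps its distal peak, an alternative chosen after seeing the data, moved no gene count by 1.5 times.

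No paired analysis was possible because no group had more than 1 library, and for the same reason leaving out a replicate was not run. Without counts or scores, the depth behind each peak is unknown, and the lists do not show how near an unlisted region came to the threshold.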
